A study of Mus musculus with 38 samples.

Results

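The nuclear genes for the subunits of oxidative phosphorylation were followed in bulk RNA-seq of the prefrontal cortex (PFC) and hypothalamus (Hypo) of adult WT and Ube3a2X mice. Members were the gene symbols that begin with Nduf, Sdh, Uqcr, Cox4 to Cox8 or Atp5 and match the subunit pattern in full, which gave 83 of 54058 symbols in the count table. They comprised 36 genes of complex I, 4 of complex II, 8 of complex III, 18 of complex IV and 17 of complex V. Ndufa4 is kept with complex I by its name, although its protein is known to be attached to complex IV. Ube3a2X mice are homozygous for a Ube3a transgene, and WT littermates were the controls, all on the FVB/NJ background. The PFC set held 5 WT females, 5 WT males, 5 Ube3a2X females and 5 Ube3a2X males. The Hypo set held 4 WT females, 4 WT males, 5 Ube3a2X females and 5 Ube3a2X males. The 38 libraries came from 25 mice, of which 13 gave both tissues. PFC tissue was taken by micropunch, and its RNA was prepared with another kit and another input amount than Hypo RNA, so tissue and RNA preparation cannot be told apart. Each library is 1 tissue of 1 mouse, and within a tissue p-values measure the spread between mice. Between tissues, the libraries of the 13 mice with both tissues were treated as independent, except where mouse was a block.

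Oxidative phosphorylation takes place in the inner mitochondrial membrane. Complex I oxidises NADH and complex II oxidises succinate, both pass electrons to ubiquinone, complex III hands them on to cytochrome c, and complex IV reduces oxygen. Complexes I, III and IV pump protons, and complex V, the ATP synthase, uses the resulting gradient to make ATP. Neurons depend on this pathway for most of their ATP. Most subunits are encoded in the nucleus, the catalytic cores of complexes I, III and IV being partly encoded in the mitochondrial genome, whose transcripts were not analysed here. Several complex IV subunits exist as a widespread isoform and a second isoform typical of heart and skeletal muscle, testis or lung.

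The promoters of the members were searched for 5 motifs that textbooks name for these genes. RefSeq windows (GRCm38.p6) of 300 bases around the start were found for 67 of the 83 members. On either strand, the NRF1 letters GCGCATGCG were present for 8 of 67 members (11.9%) against 1.95% of all genes with a window. The ETS letters CCGGAAG, read by GABPA, were present for 17 members (25.4%) against 9.93%. The YY1 core AAGATGGCG was present for 7 members (10.4%) against 1.64%. The ERR letters TNAAGGTCA were present for 3 members (4.48%) against 1.43%, and the SP1 letters GGGCGG for 27 members (40.3%) against 38.2%. The NRF1 letters read almost alike on both strands, so a match on one strand can overlap one on the other, and 22 members held none of the 5 motifs. Examples of 30 bases are shown, at least 1 for each motif and 1 for each complex, on the strand of the gene and with the match in capitals, for members that are described further on. A match in these letters was not tested for binding.
Uqcr11, NRF1, chr10:80406807-80406836, minus strand: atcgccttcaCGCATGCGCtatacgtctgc
Cox8a, ETS, chr19:7217603-7217632, minus strand: tttccgaaataCTTCCGGctcgggcgtccg
Ndufs3, ETS, chr2:90904730-90904759, minus strand: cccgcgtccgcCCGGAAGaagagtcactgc
Sdhb, ETS, chr4:140961266-140961295, plus strand: gctcggagaaaCCGGAAGcggccttccact
Ndufa9, YY1, chr6:126849096-126849125, minus strand: attgtgggagAAGATGGCGgccgccgtccg
Atp5g3, ERR, chr2:73911359-73911388, minus strand: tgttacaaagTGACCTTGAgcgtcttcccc
Atp5b, SP1, chr10:128083096-128083125, plus strand: tcgaggcttagaGGGCGGctcctccaatta

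Counted reads per PFC library ran from 36776297 to 68922354, and per Hypo library from 38920230 to 379593359. Ube3a separated the genotypes in both tissues, with 193 to 269 CPM (a count relative to the TMM-corrected total of the library) in the PFC of WT mice and 670 to 2183 CPM in Ube3a2X mice. In the Hypo it ranged from 113 to 362 CPM in WT mice and from 754 to 1749 CPM in Ube3a2X mice. The 7 markers of cortical excitatory neurons summed to 2141 to 2609 CPM per PFC library and 80.4 to 107.8 CPM per Hypo library. The 9 markers of hypothalamic neurons summed to 473 to 2258 CPM in the Hypo and at most 2.0 CPM in PFC libraries, so both tissues carried the markers of their labels. In bulk tissue, fewer cells of a type and less RNA per cell cannot be told apart.

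In both tissues the members that were abundant were the same ones, and the second isoforms of complex IV were far less abundant. Levels between genes are given as RPKM, the CPM divided by the exon length in kilobases. A single exon length per gene was used (5628 bases for Ndufb2, 1381 for Ndufa4 and 708 for Cox6b1). It was not checked against the transcripts present, and the order of genes and complexes depends on it. In the PFC the highest median RPKM belonged to Cox6b1 (271, range 114 to 309 over 20 libraries), Atp5a1 (269.9, range 215 to 295), Cox8a (263, range 166 to 465), Cox4i1 (247, range 137 to 317) and Atp5b (243, range 196 to 279.5). Cox4i1 and Cox6b1 are small nuclear subunits around the core of cytochrome c oxidase, and Atp5a1 and Atp5b are the alpha and beta chains of the catalytic head of ATP synthase. The ranges of these 5 overlapped, so their order is not separated by the spread between libraries. In the Hypo the median RPKM was 244 for Atp5a1, 199 for Atp5b, 194 for Cox6b1, 168 for Cox4i1 and 130.3 for Cox8a. By complex, the median member had 44.3 RPKM in complex I, 54.3 in complex II, 79.1 in complex III and 55.5 in complex V in the PFC, and the 10 expressed members of complex IV had 124. In the Hypo these medians were 37.8, 47.0, 56.3 and 35.2 RPKM, and 83.2 RPKM for complex IV. Complex I spanned from 6.59 RPKM for Ndufb2 to 126 RPKM for Ndufa4 in the PFC, complex II from 26.7 RPKM for the membrane anchor Sdhc to 111 RPKM for Sdha, and complex III from 29.6 RPKM for Uqcrq to 100.5 RPKM for Uqcrh. Over the 75 members with enough reads in both tissues, the rank of the median RPKM in the PFC and in the Hypo had a Spearman rho of 0.98. This is a correlation across genes, which share their exon lengths in both tissues and are not independent replicates.

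**Figure D1:**
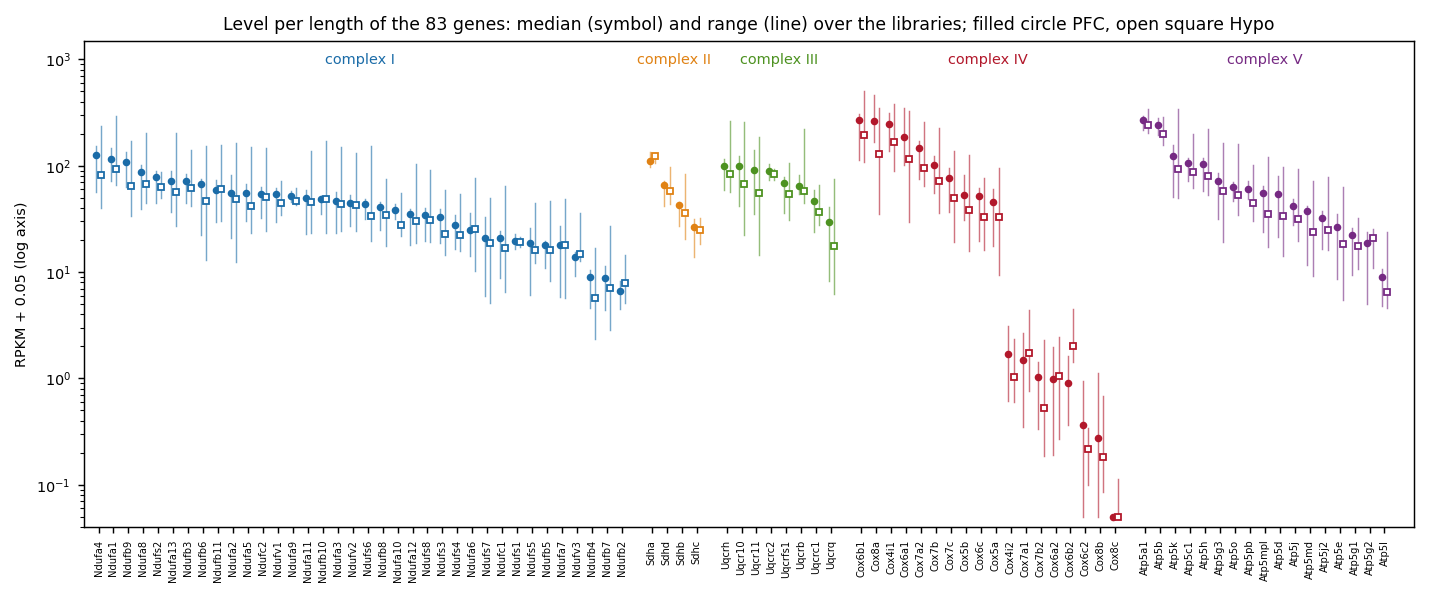
RPKM of each of the 83 genes on a log axis, grouped by complex, with the median over the libraries of a tissue as a symbol and the range as a line (filled circles PFC, 20 libraries; open squares Hypo, 18 libraries; 0.05 was added to every value). The 8 low genes of complex IV lie far under the other members.

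Of the 18 complex IV genes, 8 had fewer than 100 reads in 2 or more of all 38 libraries and were left out of the comparison of the tissues: Cox4i2, Cox6a2, Cox6b2, Cox6c2, Cox7a1, Cox7b2, Cox8b and Cox8c. Cox4i2, the lung isoform of Cox4i1, had a median of 1.65 RPKM in the PFC and 0.99 RPKM in the Hypo. Cox6a2 and Cox7a1, the heart and muscle isoforms, had 0.95 and 1.43 RPKM in the PFC, beside 187 RPKM for Cox6a1 and 147 RPKM for Cox7a2. Cox6b2, the testis isoform of Cox6b1, had 0.86 RPKM in the PFC (range 0.32 to 1.59) and 1.96 RPKM in the Hypo (range 1.37 to 4.49). Cox7b2 had 0.98 RPKM in the PFC beside 101 RPKM for Cox7b. Cox8b had 0.22 RPKM in the PFC. Cox8c had 0 reads in the 20 PFC libraries, where 3 reads in the shallowest library would be 0.082 CPM, and 8 reads in the 18 Hypo libraries. The 3 genes of the ATP synthase c subunit, which encode the same mature protein, had medians in the PFC of 22.1 RPKM for Atp5g1, 18.8 RPKM for Atp5g2 and 72.1 RPKM for Atp5g3. The exon lengths used were 4912, 1675 and 2181 bases, and the order depends on them.

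The members moved together from library to library, most strongly in 5 libraries. The level of a library was taken as the mean over the members of the log2-CPM minus the member's mean over the libraries of that tissue. It spanned -0.73 to 0.27 over the PFC libraries, while the Hypo libraries spanned -0.95 to 1.35. In 5 libraries it lay far from the rest: PFC Ube3a2X male 258 (-0.73), PFC WT female 397 (-0.60), PFC Ube3a2X female 468 (-0.48), Hypo Ube3a2X male 238 (-0.95) and Hypo WT female 471 (1.35). The other 17 PFC libraries lay between -0.15 and 0.27, and the other 16 Hypo libraries between -0.23 and 0.13. These 5 libraries were defined without the members, by the trend on exon length among the genes that are not members. It was 0.11, 0.10, 0.10, 0.16 and -0.32 log2 units per doubling of length in that order, whereas the other 33 libraries lay between -0.042 and 0.040. The limit was set at 0.08, and the 5 are called the libraries apart. Each of them belonged to a different group.

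**Figure D2:**
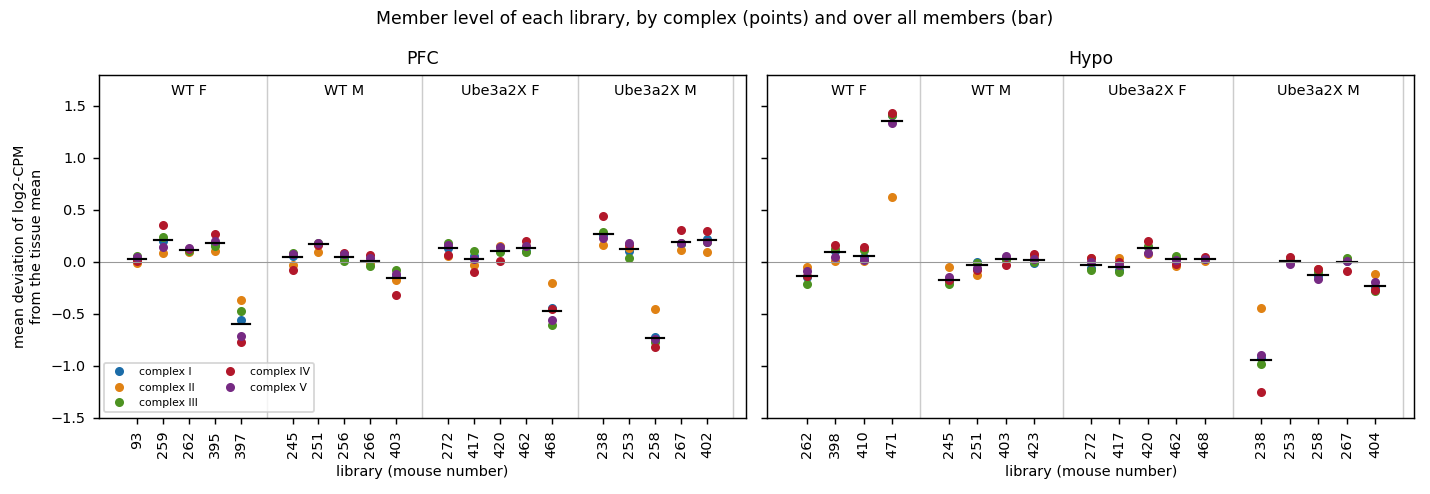
Mean deviation of the members' log2-CPM from the tissue mean in each of the 38 libraries, for each complex (coloured points) and over all members (black bar), with the groups of sex and genotype side by side and the mouse number under each library. The 5 libraries apart stand between -0.95 and 1.35, and in each of them the complex II point is the nearest to 0.

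Complex II moved least in these libraries. Its 4 genes had the longest median exon length, 2744.5 bases, against 1532, 1300, 748 and 2259 bases in complexes I, III, IV and V. The libraries apart were defined by a trend on exon length, and the part of length in this order was not tested. In Hypo WT female 471 the level was 1.41 for complex I, 0.62 for complex II, 1.41 for complex III, 1.43 for complex IV and 1.33 for complex V. In Hypo Ube3a2X male 238 it was -0.93, -0.44, -0.98, -1.25 and -0.90 for complexes I to V in that order. Single members differed widely around these means. Against the median of the other Hypo libraries, Ndufs6, an accessory subunit of complex I, was 2.20 log2 units higher in Hypo WT female 471, whereas Ndufs1, the largest subunit of complex I, was at -0.07 and Sdha, the flavoprotein of complex II, at 0.11. Of 75 members, 74 were above that median in this library. In Hypo Ube3a2X male 238, 73 of 75 members were below it, with Cox6a1 at -1.97 and Sdha at 0.07. The counts below the median of the other PFC libraries were 73 of 75 in Ube3a2X male 258, 74 of 75 in WT female 397 and 68 of 75 in Ube3a2X female 468. No share of all genes was counted beside these, so they cannot be read as particular to the members.

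The spread of the members within groups was larger than that of other genes with all libraries, and close to it without the libraries apart. The median within-group SD of log2-CPM was 0.33 for members and 0.19 for all genes in the PFC, and 0.43 and 0.20 in the Hypo. With the libraries apart left out it was 0.13 and 0.14 in the PFC, and 0.13 and 0.12 in the Hypo. The median Pearson r between 2 members across libraries was 0.77 in the PFC (n = 20) and 0.90 in the Hypo (n = 18). Without the libraries apart it was 0.44 (n = 17) and 0.36 (n = 16). Within complexes it was lowest for complex II, at 0.32 in the PFC and 0.62 in the Hypo, and highest for complex IV in the PFC (0.81) and complex I in the Hypo (0.90). These are descriptions, with no r for other genes beside them. The values of a library share its depth and its trends on length and base composition.

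The level of a library ran against its trend on exon length. Over the 20 PFC libraries the member level and the length slope of genes that are not members had r = -0.95 and rho = -0.73, and r = -0.91 without the 2 libraries farthest from the median slope. Over the 18 Hypo libraries r was -0.97 and rho -0.49, and r was -0.52 without the 2 farthest. Within the libraries that are not apart, r was -0.73 in the PFC (n = 17) and -0.52 in the Hypo (n = 16), so the Hypo value rests largely on the 2 libraries apart. RNA integrity (RIN) had r = -0.34 and rho = -0.35 with the level in the PFC, and r = 0.07 and rho = -0.07 in the Hypo. The slope on GC content over genes that are not members had r = 0.57 and rho = 0.66 with the level in the PFC, and r = 0.60 and rho = 0.59 in the Hypo. Removing each library's trend on GC content and length left levels of -0.54 to 0.20 over the PFC libraries and of -0.64 to 0.87 over the Hypo libraries. The share of coding bases was 48.9% to 51.9% in the 3 PFC libraries apart and 42.3% to 46.0% in the other 17. It was 37.5% in Hypo WT female 471 and 51.1% in Hypo Ube3a2X male 238, and 46.2% to 50.2% in the other 16. In Hypo WT female 471 the 5 pituitary markers summed to 5093 CPM, against 48.4 to 978 CPM in the 16 other Hypo libraries that are not apart. Its 9 hypothalamic neuron markers summed to 2258 CPM (473 to 917 CPM in those 16), its 6 oligodendrocyte markers to 5591 CPM (3206 to 4778 CPM) and its 4 blood markers to 328 CPM (71.2 to 245 CPM), and its 3 ependymal markers summed to 58.6 CPM (18.4 to 31.7 CPM). In PFC Ube3a2X male 258 the 6 astrocyte markers summed to 3073 CPM (1407 to 2513 CPM in the 17 PFC libraries not apart) and the 6 endothelial and mural markers to 624 CPM (235 to 416 CPM). The 6 inhibitory neuron markers summed to 775, 837 and 833 CPM in PFC libraries 258, 397 and 468 (847 to 1039 CPM in those 17), and the 3 thalamus markers to 149 and 181 CPM in 258 and 468 (94.5 to 135 CPM). PFC Ube3a2X female 468 had an AT dropout of 10.6 (15.2 to 22.1 in those 17) and a ratio of 5' to 3' coverage of 0.26 (0.36 to 0.75), and Hypo Ube3a2X male 238 had 9.52% intronic bases (3.88% to 8.41%). In Hypo Ube3a2X male 238 the markers of pituitary (40.0 CPM), blood (61.2 CPM) and ependyma (17.3 CPM) lay below those of the 16 other Hypo libraries, and the endothelial and mural markers summed to 259 CPM (208 to 253 CPM in the 16). In Hypo WT female 471 the cortical excitatory markers (80.4 CPM, against 89.5 to 107.8 CPM) and the thalamus markers (71.3 CPM, against 98.9 to 133 CPM) lay below the 16. In PFC Ube3a2X male 258 the microglia markers summed to 332 CPM (196 to 317 CPM in the 17). The AT dropout of that library was 14.4. Blood markers summed to 40.2 and 37.2 CPM in PFC libraries 258 and 397 (43.3 to 113 CPM in the 17). Striatum markers summed to 84.8 and 84.4 CPM in Hypo libraries 238 and 471 (69.6 to 80.4 CPM in the 16). Further features outside these ranges are not listed. The part of all these features in the member level was not tested.

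**Figure D3:**
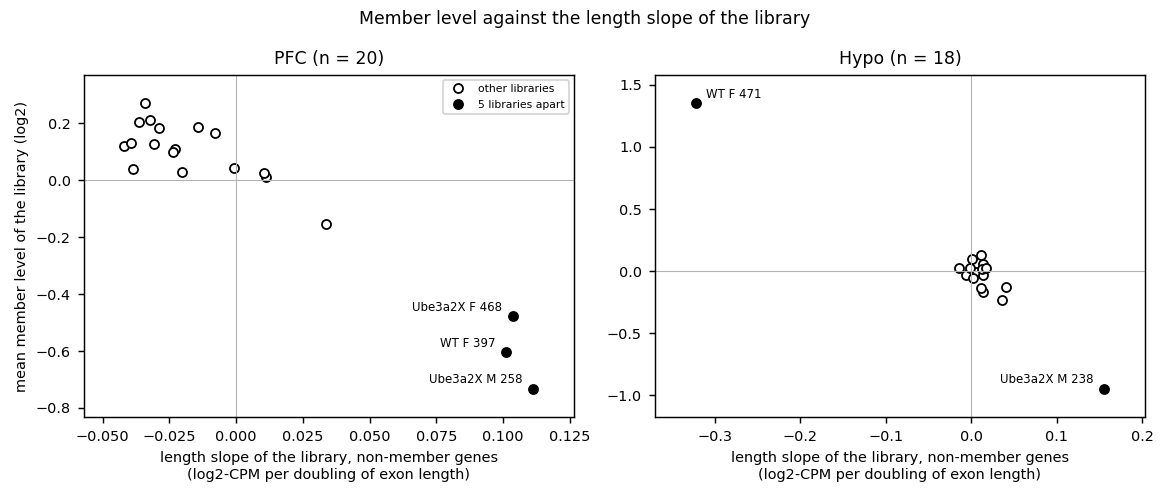
Mean member level of each library against the slope of log2-CPM on exon length over genes that are not members, for the 20 PFC libraries and the 18 Hypo libraries (filled points, the 5 libraries apart). In the PFC the points fall along a line down to -0.73, and in the Hypo 16 libraries lie close together between -0.23 and 0.13 with the 2 libraries apart at either end.

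A mouse whose library was apart in one tissue was not apart in the other. Mouse 238 had a level of -0.95 in the Hypo and 0.27 in the PFC, mouse 258 had -0.73 in the PFC and -0.13 in the Hypo, and mouse 468 had -0.48 in the PFC and 0.02 in the Hypo. Mice 397 and 471 gave 1 tissue each. The comparisons that follow are therefore given with all libraries and with these 5 left out, a choice made after the data were seen.

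The first comparison asked whether the PFC and the Hypo differ in the members. With all 38 libraries, 6 members were higher and 1 was lower in the PFC, 7 of the 75 tested, beside 66.6% of all 12465 genes. With the 5 libraries apart left out, 59 were higher and 2 lower, 61 of 75, beside 74.9% of 12770 genes, and the 7 members called at first were among them. Genes higher in the PFC made up 32.0% of all genes with all libraries and 37.1% with 33. The median difference of the members, PFC minus Hypo on the log2 scale, was 0.14 with all libraries and 0.33 with 33, against -0.023 and -0.0086 for all genes. Markers of other cells and RNA quality differed between the tissues as well. The 6 oligodendrocyte markers summed to a median of 1770 CPM in the PFC and 4263 CPM in the Hypo, and the 6 astrocyte markers to 1900 and 2758 CPM. The median RIN was 7.6 and 8.95, and the median ratio of 5' to 3' coverage 0.44 and 0.74. Their part in the difference was not tested. The median SE of a member was 0.19 with all libraries, when that of all genes was 0.10, and 0.072 and 0.075 with 33 libraries.

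Ndufb9 and Ndufa10, accessory subunits of complex I, were higher in the PFC. Ndufb9 had a lowest, median and highest value of 65.1, 112 and 139.7 CPM in the PFC and 34.7, 67.0 and 175 CPM in the Hypo. These ranges overlap, but without the libraries apart the PFC held 99.3 to 139.7 CPM and the Hypo 51.3 to 79.1 CPM, with no overlap. Its log2 difference was 0.55 (SE 0.18, adjusted p = 0.0066) with all libraries and 0.77 with 33. Ndufa10 had 104, 128 and 146 CPM in the PFC and 73.1, 91.2 and 183 CPM in the Hypo, a log2 difference of 0.38 (SE 0.10, adjusted p = 0.0014). Without the libraries apart its PFC values began at 115 CPM and its Hypo values ended at 111 CPM. Ndufa9, also of complex I, differed by 0.14 (SE 0.06, adjusted p = 0.038). Ndufb2 was the only member called lower in the PFC with all libraries, at 25.3, 37.1 and 46.4 CPM against 28.7, 43.9 and 80.6 CPM in the Hypo, a log2 difference of -0.38 (SE 0.12, adjusted p = 0.0048) that was -0.26 with 33 libraries.

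Complex IV had the highest median difference, 0.34 over its 10 tested genes with all libraries and 0.58 with 33, where all 10 passed the test. Cox8a, a small subunit of the oxidase, had 103, 163 and 288 CPM in the PFC and 21.7, 80.6 and 215 CPM in the Hypo. Its log2 difference was 0.83 (SE 0.24, adjusted p = 0.0027), the largest among the members, and 0.97 with 33 libraries. The ranges overlapped, and did so with 33 libraries as well, with 107.9 CPM at the low end of the PFC and 125 CPM at the high end of the Hypo. The widespread isoforms Cox4i1 (0.32, SE 0.18, adjusted p = 0.12), Cox6a1 (0.52, SE 0.26, adjusted p = 0.084) and Cox7a2 (0.41, SE 0.19, adjusted p = 0.052) passed the test only with 33 libraries, at 0.57, 0.73 and 0.67. Ndufa4 behaved likewise, at 0.39 (SE 0.20, adjusted p = 0.088) with all libraries and 0.64 with 33.

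In complex V, Atp5pb, the b subunit of the stalk, had 200.1, 247 and 298 CPM in the PFC and 124, 184 and 420.1 CPM in the Hypo. Its log2 difference was 0.42 (SE 0.12, adjusted p = 0.0028), and 0.47 with 33 libraries, when the PFC values began at 208 CPM and the Hypo values ended at 199.6 CPM. Atp5b had 832, 1030 and 1184 CPM in the PFC and 671, 844 and 1213 CPM in the Hypo, a log2 difference of 0.25 (SE 0.08, adjusted p = 0.0072). The c subunit genes did not move alike. Atp5g2 was at -0.50 (SE 0.23, adjusted p = 0.054) with all libraries and at -0.13 (SE 0.07, adjusted p = 0.094) with 33, and passed the test in neither set, whereas Atp5g1 and Atp5g3 were at 0.04 and 0.01 with all libraries and passed at 0.33 and 0.26 with 33.

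Complexes II and III completed the picture. Sdha, at 404, 460 and 552 CPM in the PFC and 441, 514 and 545 CPM in the Hypo, was -0.10 (SE 0.05, adjusted p = 0.069) with all libraries and passed the test at -0.13 with 33. The other catalytic subunit of complex II, the iron-sulphur protein Sdhb, was 0.13 (SE 0.14, adjusted p = 0.42) with all libraries and passed at 0.27 with 33. Of the 8 members of complex III, 0 passed with all libraries and 8 with 33, the smallest p with all libraries being that of the core protein Uqcrc2 (0.10, SE 0.07, adjusted p = 0.18). A list of 12 subunits held catalytic or core proteins such as Ndufs1, Sdha, Uqcrc1 and Atp5b and, for complex IV, the accessory subunits Cox5a and Cox5b. Of these, 1 passed with all libraries, beside 66.6% of all genes, and 11 with 33, beside 74.9%, the range with 33 libraries running from -0.13 for Sdha to 0.51 for Ndufs3, and Ndufs1 at 0.03 did not pass in either. By complex, 24 of 36 members of complex I, 3 of 4 of complex II, 8 of 8 of complex III, 10 of 10 of complex IV and 16 of 17 of complex V passed with 33 libraries, beside 74.9% of all genes, with medians of 0.28, 0.12, 0.33, 0.58 and 0.40. With all libraries these medians were 0.04, -0.05, 0.15, 0.34 and 0.18. Among the 12 members of complex I that did not pass with 33 libraries, Ndufb10 was at -0.0016 (SE 0.07) and Ndufb7 at 0.28 (SE 0.13, adjusted p = 0.052).

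**Figure D4:**
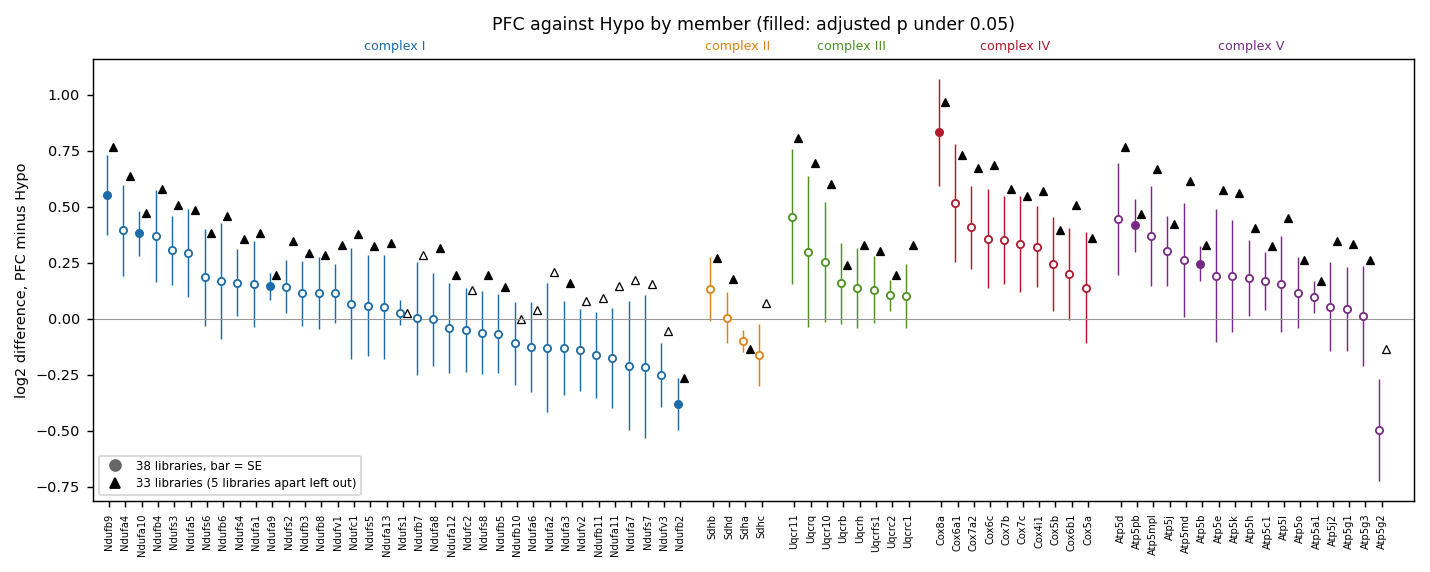
Log2 difference PFC minus Hypo for the 75 members tested, by complex, with all 38 libraries (circles, bars are SE) and with the 5 libraries apart left out (triangles). Filled symbols have an adjusted p under 0.05: 7 circles and 61 triangles are filled, and all 10 members of complex IV lie above 0 in both sets.

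The call depended on how the libraries were treated. With mouse as a block, in the 13 mice with both tissues, 0 of 75 members passed (edgeR's quasi-likelihood test, smallest adjusted p = 0.058, 3 members at an unadjusted p under 0.05 beside 50.5% of all genes), beside 42.7% of all genes at the adjusted p, and the median was 0.053, against -0.078 for all genes. With the block and without the libraries apart, in 10 mice, 21 were higher and 1 was lower, beside 47.5% of all genes, and the median was 0.31. Leaving out Hypo WT female 471 alone gave 25 of 75 members beside 71.2% of all genes, PFC Ube3a2X male 258 alone 17 beside 66.2%, and PFC Ube3a2X female 468 alone 13 beside 65.3%. The fit without a RIN term called 32 of 75 members beside 78.6% of all genes, that with the GC and length offset 24 beside 72.3%, that with the length slope as a covariate 41 beside 74.5%, and that with the filterByExpr filter 12 of 81 beside 63.4%. In each of these fits the share of members called was below that of all genes.

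Other genes of the pathway were tested in the same fit, in which 66.6% of all genes were called and 32.0% were higher in the PFC (74.9% and 37.1% with 33 libraries). Of 46 assembly factors, which help build the complexes, 12 were higher and 6 lower in the PFC with all libraries, and 26 and 5 with 33. Of 16 genes of the TCA cycle and pyruvate dehydrogenase, which feed electrons into the chain, 9 were higher and 2 lower, and 11 and 2 with 33. Of 13 carriers and regulators, such as cytochrome c and the transcription factors of mitochondrial biogenesis, 5 were higher and 4 lower, and 5 and 5 with 33. Their medians were 0.064, 0.21 and -0.033 with all libraries.

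The next comparison asked whether genotype acted differently in the 2 tissues. No member was called by edgeR, nor was any of the 12465 genes (0%). At an unadjusted p under 0.05, 5 members of 75 were positive, beside 3.92% of all genes, and DESeq2 and limma-voom called 0 members. Among all genes 983 had an unadjusted p under 0.05. The contrast had a median of 0.32 over the 75 members, whose values are correlated across libraries, against 0.0031 for all genes. Uqcrb, a small subunit of complex III, had the smallest p (0.60, SE 0.23, adjusted p = 0.55), and those with the smallest p in the other complexes were Ndufs6 (0.65, SE 0.28), Atp5j (0.44, SE 0.20), Cox5b (0.51, SE 0.28) and Sdha (0.11, SE 0.06). Without the libraries apart Uqcrb was at 0.13 and Ndufs6 at 0.15. Without the libraries apart the median was 0.061, and with mouse as a block -0.062. The difference between PFC and Hypo was -0.0039 at the median member in WT mice and 0.29 in Ube3a2X mice with all libraries, and 0.30 and 0.36 with 33.

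Within the PFC, the interaction of sex and genotype asks whether genotype acts differently in males and females. Library measures differed between these groups as well. Intronic bases were 3.103% to 4.004% in Ube3a2X males and 4.398% to 5.847% in WT males, while the ranges of the female groups overlapped. Reads on the expected strand had a median of 99.07% in Ube3a2X males and 93.06% to 93.92% in the other groups, with overlapping ranges. The part of these measures in the PFC comparisons was not tested separately. No member was called and none of the 10875 genes tested (0%) with edgeR, while DESeq2 called 784 genes (7.21%) and 6 members (Ndufa1, Ndufa5, Ndufb3, Ndufs5 and Cox6c negative, Atp5d positive), and limma-voom called 0 members. Among all genes 2728 had an unadjusted p under 0.05 in the edgeR fit. In the edgeR fit, 17 members of 70 were negative at an unadjusted p under 0.05 beside 11.7% of all genes, and 1 was positive beside 13.4%. The median interaction, males minus females, was -0.21 for the members and 0.0042 for all genes. The 5 members removed by the filter on low variance (Ndufa10, Ndufa9, Sdha, Atp5a1 and Atp5b) lay between -0.25 and 0.01 when tested without that filter.

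Ndufa5, an accessory subunit of complex I, had the smallest p. In WT females 93, 259, 262, 395 and 397 it had 45.7, 55.0, 53.5, 60.4 and 31.0 CPM. In Ube3a2X females 272, 417, 420, 462 and 468 it had 57.4, 57.0, 63.5, 63.1 and 56.2 CPM. In WT males 245, 251, 256, 266 and 403 it had 65.0, 59.8, 56.2, 56.2 and 55.7 CPM, and in Ube3a2X males 238, 253, 258, 267 and 402 it had 54.5, 69.0, 39.5, 59.3 and 58.2 CPM. The groups overlapped, and the lowest values of WT females and of Ube3a2X males were those of libraries 397 and 258. The fitted interaction was -0.60 (SE 0.16, adjusted p = 0.097) with all libraries and -0.14 without the libraries apart.

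Cox6c, a small complex IV subunit, showed the libraries more plainly. It had 158, 191, 186, 199.7 and 69.7 CPM in WT females (same order), 187, 168, 178, 209 and 84.6 CPM in Ube3a2X females, 201, 202, 178, 196 and 161 CPM in WT males and 187, 219.9, 79.1, 219 and 208 CPM in Ube3a2X males. The 3 libraries apart were the only ones under 100 CPM. Its interaction was -0.55 (SE 0.18, adjusted p = 0.11) and -0.01 without them. Atp5d, the delta subunit in the central stalk of ATP synthase, was the 1 positive member (0.25, SE 0.09, adjusted p = 0.11) and 0.09 without them. The members with the smallest p in complexes II and III were Sdhd (-0.27, SE 0.11, adjusted p = 0.15) and Uqcrb (-0.37, SE 0.14, adjusted p = 0.13), and Uqcrb was at 0.04 without the libraries apart. The median interaction was -0.13 in complex I, -0.23 in complex II, -0.19 in complex III, -0.20 in complex IV and -0.27 in complex V with all libraries, and between 0.01 and 0.07 in each complex without the libraries apart. Fewer members were tested in the second set, and complex II was then Sdhc alone (0.07, and -0.05 with all libraries), so the medians cover different members. Without them 0 of the 62 members still tested had an unadjusted p under 0.05, and their median was 0.03. The 12 subunits of that list lay between -0.25 (Ndufs1) and 0.15 (Cox5b) without the variance filter, and 0 passed.

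**Figure D5:**
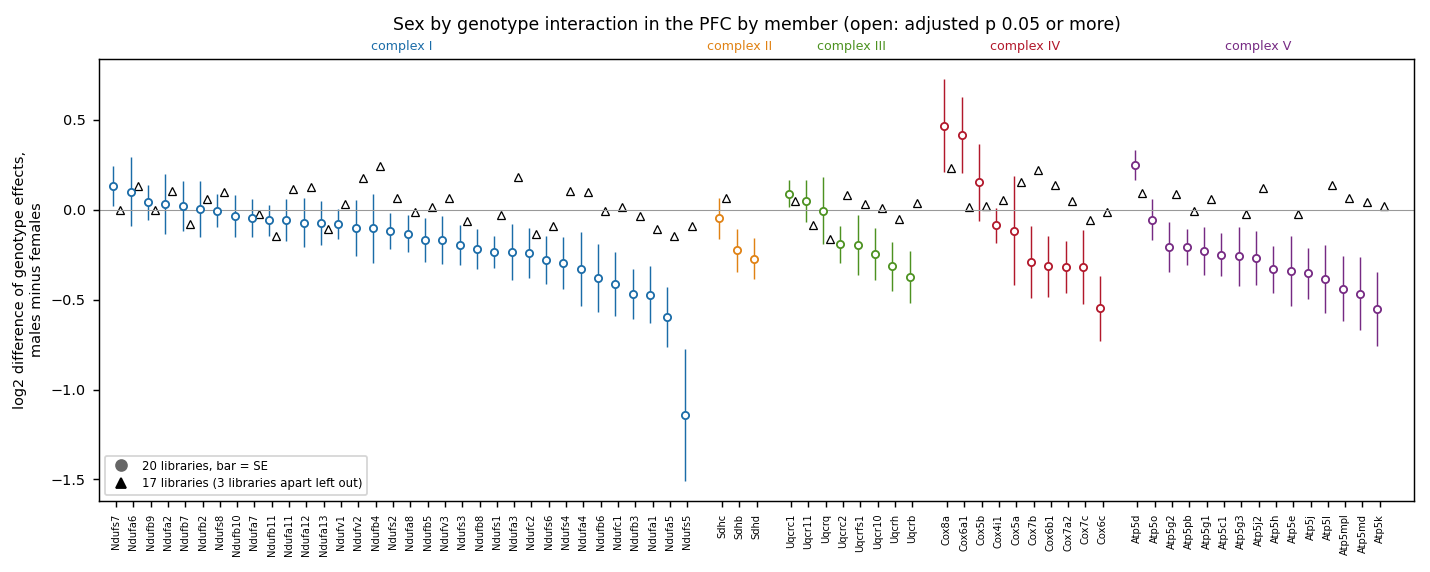
Difference between males and females in the effect of genotype on log2 expression in the PFC for the 70 members tested, by complex, with 20 libraries (circles, bars are SE) and with the 3 PFC libraries apart left out (triangles, for members still tested). No symbol is filled, and the median moves from -0.21 to 0.03.

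Leaving out other single libraries also moved this count. Without PFC Ube3a2X male 253, 17 of 71 members were called beside 9.52% of all genes. Without WT female 93, 6 of 71 were called beside 17.4%, and without Ube3a2X female 462, 2 of 70 beside 4.45%. None of these 3 is a library apart. With RIN as the only covariate the median of the members was 0.085, and with 3 surrogate variables -0.045. The other genes of the pathway held 0 calls, and at an unadjusted p under 0.05 13.4% of all genes were higher and 11.7% lower. At that threshold 3 of 38 assembly factors were higher and 7 lower, with 1 and 2 of 8 genes of the TCA cycle and pyruvate dehydrogenase and 1 and 2 of 10 carriers and regulators.

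For genotype averaged over the sexes in the PFC, 0 of 70 members were called beside 0.0184% of all genes, and DESeq2 and limma-voom called 0 members. At an unadjusted p under 0.05, 6 members were positive, beside 3.63% of all genes, and without the libraries apart 9 of 62, beside 4.38%, with 0 called. The median was 0.10, and 0.057 without the libraries apart. The members with the smallest p in each complex were Ndufa3 (0.20, SE 0.08, adjusted p = 0.53), Atp5o (0.13, SE 0.06), Sdhd (0.12, SE 0.06), Cox7b (0.21, SE 0.10) and Uqcrh (0.12, SE 0.07). In females alone, 28 members of 70 were positive at an unadjusted p under 0.05 with all libraries, beside 7.26% of all genes, and 2 of 62 without the libraries apart, beside 1.05%. Atp5d went the other way in females, at -0.16 with all libraries (edgeR, unadjusted p = 0.019) and -0.07 without the libraries apart. In males alone the median was -0.01 with all libraries, when 1 member (Cox8a) was positive at that threshold beside 10.3% of all genes. It was 0.08 without the libraries apart, when 5 of 62 were positive (Ndufa3, Atp5k, Atp5j2, Cox6b1 and Cox7b) beside 2.46%. For sex averaged over the genotypes, edgeR and DESeq2 called 0 members beside 0.092% of all genes with edgeR, and 1 was negative at an unadjusted p under 0.05 beside 4.1%. The smallest p values of each complex were those of Ndufa12 (-0.15, SE 0.07, adjusted p = 0.57), Uqcr11 (-0.11, SE 0.06), Atp5d (-0.06, SE 0.04), Cox5b (-0.12, SE 0.11) and Sdhb (-0.06, SE 0.06). With the 3 PFC libraries apart left out, 0 of 62 members were called or had an unadjusted p under 0.05, and the median was -0.0086, with Ndufa12 at -0.09 and Uqcr11 at -0.08. Within WT mice 9 of 70 members were higher in males at an unadjusted p under 0.05 with all libraries, beside 5.33% of all genes, and 1 (Atp5d) was lower beside 4.92%. Within Ube3a2X mice 6 were lower at that threshold beside 9.83%, and in both genotypes 0 of 62 had an unadjusted p under 0.05 without the libraries apart. The X-linked members had differences of 0.04 (Ndufa1, SE 0.08), 0.05 (Ndufb11, SE 0.05) and -0.08 (Cox7b, SE 0.10), male minus female.

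In the Hypo, the comparison of the sexes called 1 member with edgeR. Ndufs3, a core subunit of complex I, had 47.8, 56.3, 56.6 and 128 CPM in WT females 262, 398, 410 and 471, and 54.3, 53.2, 51.2, 49.2 and 52.6 CPM in Ube3a2X females 272, 417, 420, 462 and 468. It had 45.4, 49.3, 43.7 and 50.3 CPM in WT males 245, 251, 403 and 423, and 31.7, 50.4, 48.9, 43.7 and 41.5 CPM in Ube3a2X males 238, 253, 258, 267 and 404. Females were mostly above males, the values of both sexes overlapping between 47.8 and 50.4 CPM. The fitted difference, male minus female, was -0.17 (SE 0.04, adjusted p = 0.047), a small difference, and -0.18 without the libraries apart (adjusted p = 0.011). The call was lost with limma-voom and in most fits that left out 1 library, as given below.

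Over the members, 1 of 73 was called in this comparison beside 2.41% of all 11844 genes. At an unadjusted p under 0.05, 15 were lower in males and 0 higher, beside 7.98% of all genes that were lower. The median was -0.074, and -0.054 without the libraries apart, when 6 members of 71 were called beside 6.82% of all genes: Ndufs3, Ndufa6, Ndufb2, Ndufb5, Cox7b and Atp5g3. In that set 23 members were lower at an unadjusted p under 0.05 beside 12.5% of all genes, and 3 were higher beside 11.8%. In the other complexes the smallest p were those of Cox5b (-0.25, SE 0.07, adjusted p = 0.076), Atp5g3 (-0.22, SE 0.09), Sdhb (-0.09, SE 0.04) and Uqcrb (-0.09, SE 0.04). The X-linked Cox7b was at -0.15 (SE 0.06), Ndufb11 at -0.06 (SE 0.06) and Ndufa1 at 0.03 (SE 0.08). Within Ube3a2X mice alone, 28 of 73 members were lower in males at an unadjusted p under 0.05, beside 12.2% of all genes, 2 were higher beside 8.33%, and the median was -0.13. EdgeR called 0 of these members, and DESeq2 called 5 beside 5.84% of all genes. In Ube3a2X mice without the libraries apart, 22 of 71 members were lower in males at an unadjusted p under 0.05, beside 8.92% of all genes, 3 were higher beside 9.43%, edgeR called 1 (Atp5g3) beside 1.53%, and the median was -0.078. Within WT mice the median was 0.0034 with all libraries, when 2 of 73 members were lower beside 3.24%, and -0.024 without the libraries apart, when 4 of 71 members were lower at an unadjusted p under 0.05 beside 8.41% of all genes and 0 were called. The call of Ndufs3 was lost in 13 of the 18 fits that left out 1 library (WT females 262, 398, 410 and 471, WT males 245, 251 and 403, Ube3a2X females 272, 417 and 468, Ube3a2X males 253, 258 and 404), at -0.15 to -0.19. Without Ube3a2X male 238, 5 of 73 members were called beside 3.83% of all genes, without Ube3a2X male 267 2 members beside 2.87%, and without Ube3a2X female 462 2 members beside 2.51%.

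The other comparisons in the Hypo called no member. For the interaction of sex and genotype edgeR called 0 of 73 members and 0 of 11844 genes (0%), and DESeq2 and limma-voom called 0 members. At an unadjusted p under 0.05, 3 members were negative beside 5.6% of all genes. The median was -0.11, and -0.016 without the libraries apart, when 4 of 71 members were negative at an unadjusted p under 0.05 beside 2.3% of all genes: Ndufb9 (-0.17), Ndufa7 (-0.21), Atp5g3 (-0.22) and Cox7c (-0.21). With all libraries Ndufb9 had the smallest p (-0.23, SE 0.09, adjusted p = 0.63), with Sdhb (-0.16, SE 0.08), Atp5g3 (-0.35, SE 0.18), Cox7c (-0.40, SE 0.20) and Uqcr11 (-0.33, SE 0.19) next in the other complexes. For genotype averaged over the sexes edgeR, DESeq2 and limma-voom called 0 members beside 0.00844% of all genes with edgeR, and 0 had an unadjusted p under 0.05. The median was -0.0043, with Ndufs8 (-0.09, SE 0.05, adjusted p = 0.95), Cox5b (-0.13, SE 0.07), Atp5b (0.05, SE 0.05), Uqcrh (0.06, SE 0.06) and Sdhc (0.04, SE 0.06) at the smallest p in their complexes. Without the libraries apart the median was 0.015, and 2 of 71 members, Cox7a2 and Ndufb8, were positive at an unadjusted p under 0.05 beside 5.03% of all genes. In females alone, 1 member (Ndufb9) was positive at that threshold with all libraries, beside 2.19% of all genes, with a median of 0.069. In females without the libraries apart, 9 of 71 were positive beside 2.7% of all genes and 1 (Ndufs8) negative beside 3.55%, with a median of 0.047, and 0 were called. In males alone 0 members had an unadjusted p under 0.05 in either set, with medians of -0.054 and 0.014.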

How the data were processed

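The deposited table holds counts of reads per gene, without normalization. Libraries were stranded, paired-end and prepared together from mRNA. The authors aligned reads to GRCm38 with STAR and counted them with featureCounts. In 82 symbols several rows repeat the same counts, and 1 row per symbol was kept. From the table of quality measures, RIN and AT dropout are deposited as a score, base shares as a fraction (given here in percent), coverage bias as a ratio and aligned reads as a count.

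Symbols were joined to GENCODE vM21 (GRCm38) for coordinates and exon lengths. The edgeR 4.0.16 quasi-likelihood test (R 4.3.3, TMM) was fitted to all genes and p-values were adjusted by Benjamini and Hochberg at 0.05. Genes under 100 reads in 2 or more libraries were removed, and within a tissue so was the least variable 15% of genes by log2-CPM. Within a tissue the model held the 4 groups, RIN and 2 surrogate variables (sva 3.50.0), and between tissues 8 groups and RIN. Fold changes and SE are on the log2 scale, the SE being the fold change divided by the root of F. CPM use TMM-scaled library sizes over all libraries. Alternatives used limma 3.58.1 and DESeq2 1.42.0. The fits were tested on simulated data. The members, lists and named genes (all members called if 10 or fewer, otherwise 5 each way, the smallest p of each complex, a list of 12 catalytic, core or Cox5 subunits, isoform sets and X-linked members) were chosen with earlier results of these data known. Libraries of one group are separate mice. In 72 pairs of libraries of a group the counts differed by at least 15.1 times the sampling noise. The mitochondrially encoded subunits were not analysed here. The 13 mice with both tissues pair libraries by animal, and the correlation of a mouse's deviations between tissues was -0.06 at the median (range -0.55 to 0.41).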

Additional observations from a re-analysis of the deposited data

Results flagged for a closer look

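In 5 of the 8 groups 1 library lay farther from the others in mean member level than Dixon's test at 95% allows, where chance gives about 1 in 20 groups. They were PFC Ube3a2X male 258 at -0.73, PFC WT female 397 at -0.60, PFC Ube3a2X female 468 at -0.48, Hypo Ube3a2X male 238 at -0.95 and Hypo WT female 471 at 1.35. The gap to the nearest library took 0.85, 0.78, 0.83, 0.75 and 0.85 of the group's range.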

How the results depend on the processing

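The member count between tissues was 7, beside 66.6% of all genes, and it was 0 beside 42.7% with a replicate block of mouse as a fixed term, 12 beside 63.4% with filterByExpr, 32 beside 78.6% with no RIN term, 24 beside 72.3% with the GC and length offset, 61 beside 74.9% with the libraries apart left out, 22 beside 47.5% with these left out and the block, and 41 beside 74.5% with the length slope as a covariate. Leaving out 1 library gave 6 to 25. The block with an estimated correlation within a mouse, DESeq2, limma-voom and RLE factors kept the count within 1.5 times. In the PFC interaction DESeq2 called 6, and leaving out 1 library gave 0 to 17. For sex in the Hypo the count of 1 became 3 with DESeq2, 4 with 3 surrogate variables and 6 without the libraries apart. It became 0 with limma-voom, filterByExpr, RIN only, 1 surrogate variable, 2 quality components, the GC and length offset or the length slope, and leaving out 1 library gave 0 to 5. Counts over all genes that moved by more than 1.5 times were, for the PFC interaction, 0 against 784 with DESeq2 and 625 with the length slope. For sex in the Hypo 286 became 654 with DESeq2, 12 with RIN only, 109 and 558 with 1 and 3 surrogate variables, 70 with the quality components, 132 with the offset, 74 with the length slope and 818 without the libraries apart. Between tissues 8306 became 5413 with the fixed block and 14090 with filterByExpr. For sex in the PFC 10 became 39 with DESeq2, 22 with filterByExpr and 3 with RIN only. Genotype gave at most 32 genes (DESeq2) against 2 in the PFC and at most 5 (DESeq2, libraries apart left out) against 1 in the Hypo. The libraries apart and the length slope were added after the data were seen. The causes were not tested.

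Signs turned as follows. For the PFC interaction Cox6c became 0.11 with the quality components and Uqcrb 0.037 without the libraries apart. For sex in the PFC, Uqcr11 became 0.0026 and Atp5d 0.0047 with the length slope, and Ndufa1 -0.031 and Ndufb11 -0.026 with the quality components. For the Hypo interaction, RIN only gave 0.15 for Ndufb9, 0.14 for Sdhb, 0.14 for Atp5g3, 0.0043 for Cox7c and 0.40 for Uqcr11, and the quality components gave 0.29, 0.25, 0.33, 0.12 and 0.59. Atp5g3 became 0.0019 with the GC and length offset, and Uqcr11 0.17 with filterByExpr and 0.014 with the length slope. For genotype in the Hypo, RIN only gave -0.066 for Atp5b, -0.39 for Uqcrh and -0.057 for Sdhc, and the quality components -0.044 for Uqcrh. For sex in the Hypo, Uqcrb became 0.022 with the quality components, Ndufa1 -0.27 with RIN only and Ndufb11 0.0047 with the GC and length offset. Between tissues, Atp5g1 became -0.024 and Atp5g3 -0.10 with the fixed block, -0.046 and -0.013 with the correlation within a mouse, and -0.030 and -0.000827 with limma-voom. Cox5b in the tissue by genotype contrast became -0.0096 with the fixed block and the libraries apart left out. Leaving out 1 library also turned signs, with a range of -0.055 to 0.13 for Atp5g3 and -0.068 to 0.16 for Atp5g1 between tissues, -0.058 to 0.087 for Ndufa1 by sex in the Hypo, -0.030 to 0.087 for Ndufa1 by sex in the PFC, -0.47 to 0.020 for Uqcr11 in the Hypo interaction and -0.0043 to 0.071 for Sdhc by genotype in the Hypo.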
